A study of Mus musculus with 12 samples.

Results

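The genes described here encode the translation initiation factors of the mouse. They are all protein-coding genes in the count files whose symbol starts with Eif1, Eif2, Eif3, Eif4, Eif5 or Eif6, without the Eif2ak kinases and without pseudogenes. The rule used names and annotation and no measured value. It gave 51 genes of the 49585 listed, and 49 of the 51 passed the filter on low counts. Eif4e1b had no count in any library, and Eif4ebp3 had 1 to 9 counts per library, so neither was tested.

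RNA of whole pancreas was sequenced from 12 mice that were 2 to 4 months old, 1 library for each animal, in 4 groups of 3. The wild type groups were C57Bl6 controls given saline (libraries W1, K5 and R3) or cerulein (O1, O3 and N3). The other groups were congenic Atf3-/- mice given saline (S1, K4 and Q1) or cerulein (C2, C3 and L4). Each animal received 4 injections of saline or of 50 ug/kg cerulein, an analogue of cholecystokinin that drives the acinar cell and causes pancreatitis in excess, and the tissue was taken at 4 h. The labels do not say which part of Atf3 is deleted or whether other alleles are carried.

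The libraries held 18292997 to 32158629 counts. The 6 acinar markers together stood at 183246 to 378347 CPM (the usual count scaled for depth, here on TMM-scaled library sizes). Atf3 was not lower in the Atf3-/- libraries than in wild type: it stood at 1.13 to 5.28 CPM in wild type saline and 7.44 to 23.1 CPM in Atf3-/- saline, so those libraries are called labelled knockout here. The library C3 carries a cerulein label, yet its Atf3 level was 20.7 CPM, against 394 to 1636 CPM in the other 5 cerulein libraries. C3 is therefore given apart throughout, and counts are given with and without it.

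Initiation begins when eIF2, loaded with GTP and the initiator tRNA, joins the small ribosomal subunit together with eIF1, eIF1A, eIF3 and eIF5. The cap-binding complex eIF4F, made of eIF4E, eIF4G and the helicase eIF4A, brings in the mRNA, and the Eif4ebp proteins block eIF4E until mTORC1 phosphorylates them. After start codon recognition eIF5B joins the large subunit, and eIF2B reloads eIF2 with GTP, the step that is inhibited when eIF2 is phosphorylated under stress. The acinar cell makes digestive enzymes at a very high rate, and both control points are known to respond to secretagogues there.

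Cerulein raised many of these genes in wild type. Of the 49 tested, 20 rose, 2 fell and 27 did not pass (edgeR quasi-likelihood test over 12 libraries, Benjamini-Hochberg adjusted p under 0.05 over 14329 genes). Of all genes tested, 17.9% rose and 12.8% fell (30.7% in either direction). At an unadjusted p under 0.05 were 27 (43.1% of all genes) with C3 and 30 (46.3%) without it. The median log2 fold change of the 49 was 0.48, against 0.05 for all genes. Without C3, 21 rose and 2 fell, with Eif1ad added, where 21.3% of all genes rose and 16.6% fell (37.9% in either direction). With all 12 libraries in the fit these calls were sensitive to single libraries. When 1 library was left out, 8 to 23 genes passed. The lowest counts were 8 without O3, 9 without K5, 10 without R3, 13 without O1 and 14 without W1. Except for the fit without C3, the shares of all genes in these fits are not given. The drop is therefore not read as a trait of these genes. Eif1a, Eif2b3, Eif4a1, Eif4e, Eif4enif1, Eif5 and Eif6 passed under each of the 20 other settings tried, and the other 15 of the 22 lost their call under at least 1. With C3 left out throughout, leaving out any further library gave 23 to 29 genes, and all 22 were among them each time.

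All 3 cerulein libraries lay above all 3 saline libraries for 28 of the 49 genes and below them for 3; of all genes 27.5% and 24.9% did so. The 51 genes took 0.284% to 0.336% of the reads counted after saline and 0.537% to 0.578% after cerulein with C3 set apart, which gave 0.342%.

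**Figure D1:**
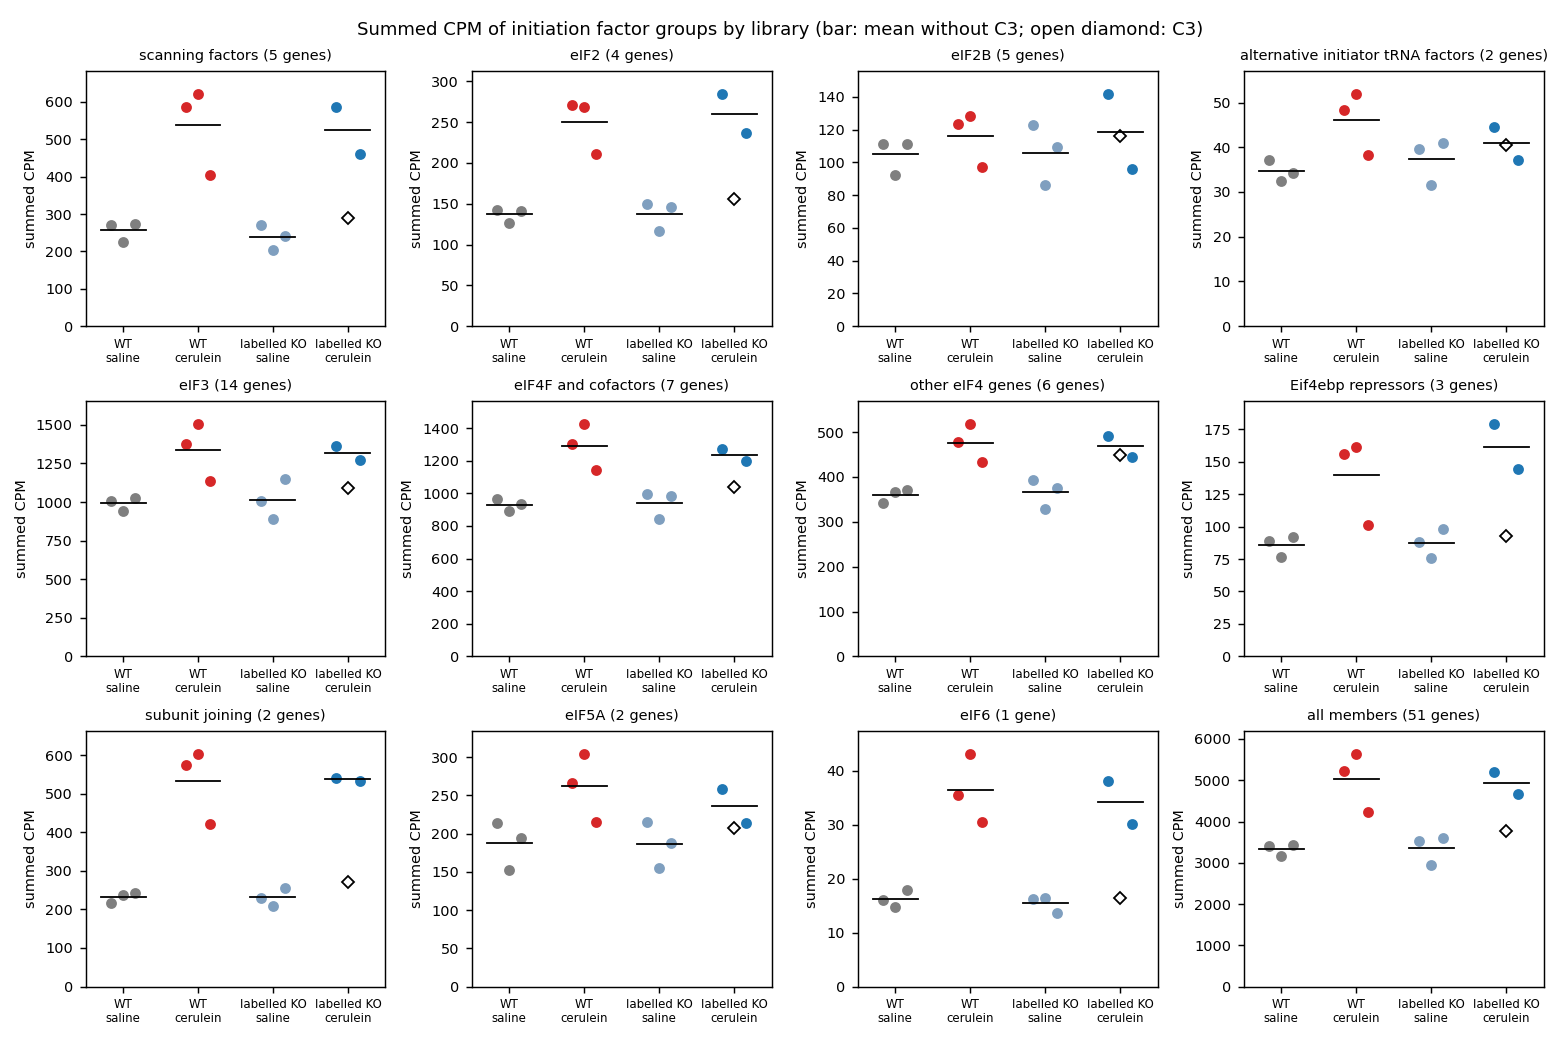
Summed CPM (y axis) of each group of initiation factor genes in each of the 12 libraries, by group on the x axis; a point is 1 library, the open diamond is C3 and the bar is the group mean without C3. The subunit joining genes summed to 218 to 243 CPM in wild type saline and 421 to 602 CPM in cerulein, with Eif5 the only one of the pair that passed, while the summed eIF2B genes overlapped between the groups.

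The groups of factors differed in how far they moved. The summed level of the subunit joining group, Eif5 and Eif5b, was 233 ± 13.3 CPM in wild type saline and 532 ± 97.2 CPM in cerulein (SD, n = 3). The ratio was 2.29. Of that sum Eif5 went from 134 to 406 CPM on average, and Eif5b from 99.0 to 126 CPM, with the Eif5b libraries overlapping. The 5 scanning factors went from 256 ± 27.0 to 538 ± 117 CPM, a ratio of 2.10, and the 4 eIF2 genes from 137 ± 8.71 to 250 ± 34.0 CPM, a ratio of 1.83. The 14 eIF3 genes went from 991 ± 42.6 to 1339 ± 187 CPM, a ratio of 1.35, and the 7 genes of eIF4F and its cofactors from 931 ± 36.3 to 1290 ± 142 CPM, a ratio of 1.39. For these sums every cerulein library was above every saline library in wild type. The 5 eIF2B genes summed to 105 ± 10.97 and 116 ± 16.8 CPM, and those libraries overlapped. No test was made on the sums, in which the most abundant genes weigh most.

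**Figure D2:**
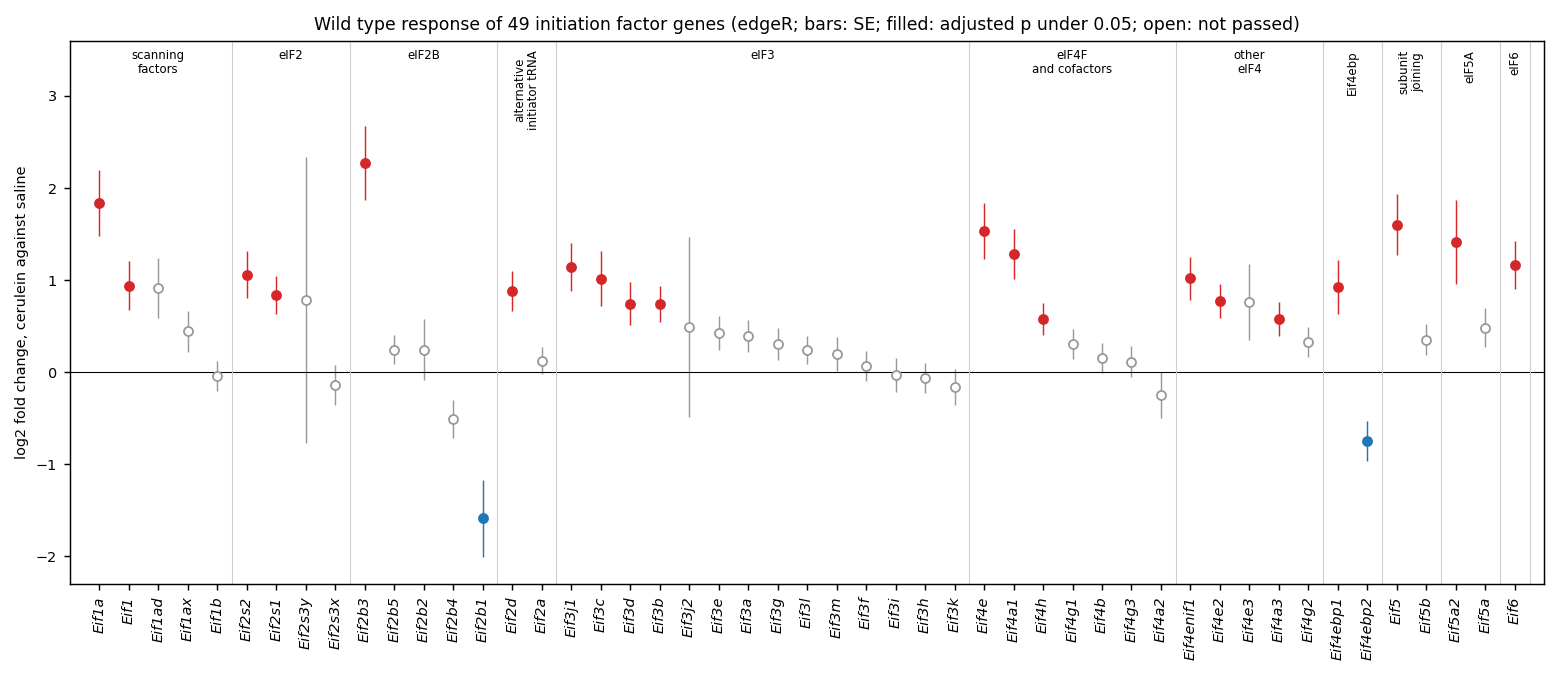
Log2 fold change of cerulein against saline in wild type for the 49 tested genes (y axis, bars are SE), ordered by group of factors and then by size; filled points passed an adjusted p of 0.05. Eif2b3 stands highest at 2.27 and Eif2b1 lowest at -1.59, within the same complex.

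Among the scanning factors, which hold the ribosome ready for the start codon, Eif1 and Eif1a rose. Eif1a stood at 55.1, 33.4 and 40.9 CPM in the wild type saline libraries (in the order W1, K5, R3) and at 165, 177 and 119 CPM in the cerulein libraries (O1, O3, N3). Every cerulein library was above every saline library, with N3 the lowest of its group. The log2 fold change was 1.83 ± 0.36 (SE, edgeR adjusted p = 0.00918).

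Eif1ax encodes the same factor eIF1A from the X chromosome. Its levels were 34.6, 26.4 and 28.0 CPM in wild type saline and 43.4, 47.8 and 29.8 CPM in cerulein. N3 lay within the saline range, and the log2 difference of 0.44 ± 0.22 did not pass (edgeR adjusted p = 0.149). On the scale of CPM per kb of exon, Eif1a over Eif1ax was 1.60 to 2.23 over the 6 saline libraries against 4.59 to 5.07 over the 5 cerulein libraries without C3, and C3 had 2.25.

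Eif1 was the most abundant scanning factor per kb. It measured 159, 147 and 185 CPM in wild type saline and 347, 365 and 232 CPM in cerulein, without overlap, and rose by a log2 fold change of 0.94 ± 0.27 (edgeR adjusted p = 0.023). Its near copy Eif1b read 8.60, 7.71 and 8.70 CPM after saline and 7.74, 9.49 and 7.08 CPM after cerulein. The Eif1b libraries overlapped, at a log2 difference of -0.04 ± 0.16 (edgeR adjusted p = 0.863). A pseudogene of Eif1 outside the set, Eif1-ps1, held 0.358% to 1.11% as many counts as Eif1, so reads shared between the copies are possible. Eif1ad, which carries an eIF1A domain, did not pass with all libraries (0.92 ± 0.32, edgeR adjusted p = 0.0524) and passed without C3 (0.92 ± 0.18, edgeR adjusted p = 0.0022). Its exons overlap Banf1 on the opposite strand over 428 bases, and the strand setting of the counting is not given in the sources used here.

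The eIF2 genes encode the 3 subunits that carry the initiator tRNA. Eif2s2, the beta subunit and the most abundant per kb, stood at 89.3, 70.2 and 77.1 CPM in wild type saline and at 185, 179 and 129 CPM in cerulein. Its groups did not overlap, and it rose by 1.06 ± 0.26 (log2, edgeR adjusted p = 0.0134). Eif2s1, the alpha subunit that stress kinases phosphorylate, rose by 0.84 ± 0.21 (log2, edgeR adjusted p = 0.0149).

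The gamma subunit has an X-linked and a Y-linked gene. Eif2s3x levels in wild type were 22.3, 16.8 and 18.7 CPM after saline and 16.5, 15.8 and 20.2 CPM after cerulein, overlapping, with a log2 difference of -0.14 ± 0.22 (edgeR adjusted p = 0.661). Eif2s3y had no count in W1, S1 and C3, which allows up to 0.194, 0.126 and 0.141 CPM there (3 counts per library, counting error only), and 216 to 589 counts in the other 9 libraries. Those same 3 libraries had the highest Eif2s3x levels, 22.3, 29.9 and 23.8 CPM, against 15.8 to 20.2 CPM in the other 9. The wild type groups are split in this way only by W1, and the Eif2s3y change was 0.78 ± 1.55 (log2, edgeR adjusted p = 0.736).

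eIF2B, the exchange factor that recharges eIF2, held both the largest rise and the largest fall of the 49 genes. Eif2b3, the gamma subunit of the catalytic part, measured 6.34, 4.78 and 6.18 CPM in wild type saline and 30.4, 31.0 and 22.1 CPM in cerulein. The groups were far apart, and it rose by 2.27 ± 0.40 (log2, edgeR adjusted p = 0.00918).

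Eif2b1, the alpha subunit of the regulatory part, went the other way. It stood at 24.9, 20.1 and 22.6 CPM in wild type saline and at 8.36, 7.50 and 6.58 CPM in cerulein. No libraries overlapped, and it fell by 1.59 ± 0.42 on the log2 scale (edgeR adjusted p = 0.0177). Per kb, Eif2b3 over Eif2b1 was 0.0942 to 0.116 over the 6 saline libraries against 1.33 to 1.64 over the 5 cerulein libraries without C3, and C3 had 0.126.

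The remaining eIF2B genes did not pass. Eif2b2, the most abundant of the complex per kb in saline, read 28.5, 21.1 and 29.7 CPM in wild type saline and 33.6, 34.2 and 25.9 CPM in cerulein, with N3 within the saline range (0.24 ± 0.33, edgeR adjusted p = 0.615). Eif2b5, the catalytic epsilon subunit, differed by 0.24 ± 0.16 (log2, edgeR adjusted p = 0.272) and Eif2b4, the delta subunit, by -0.51 ± 0.20 (log2, edgeR adjusted p = 0.0775). The exons of Eif2b4 overlap Snx17 on the other strand over 204 bases.

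**Figure D3:**
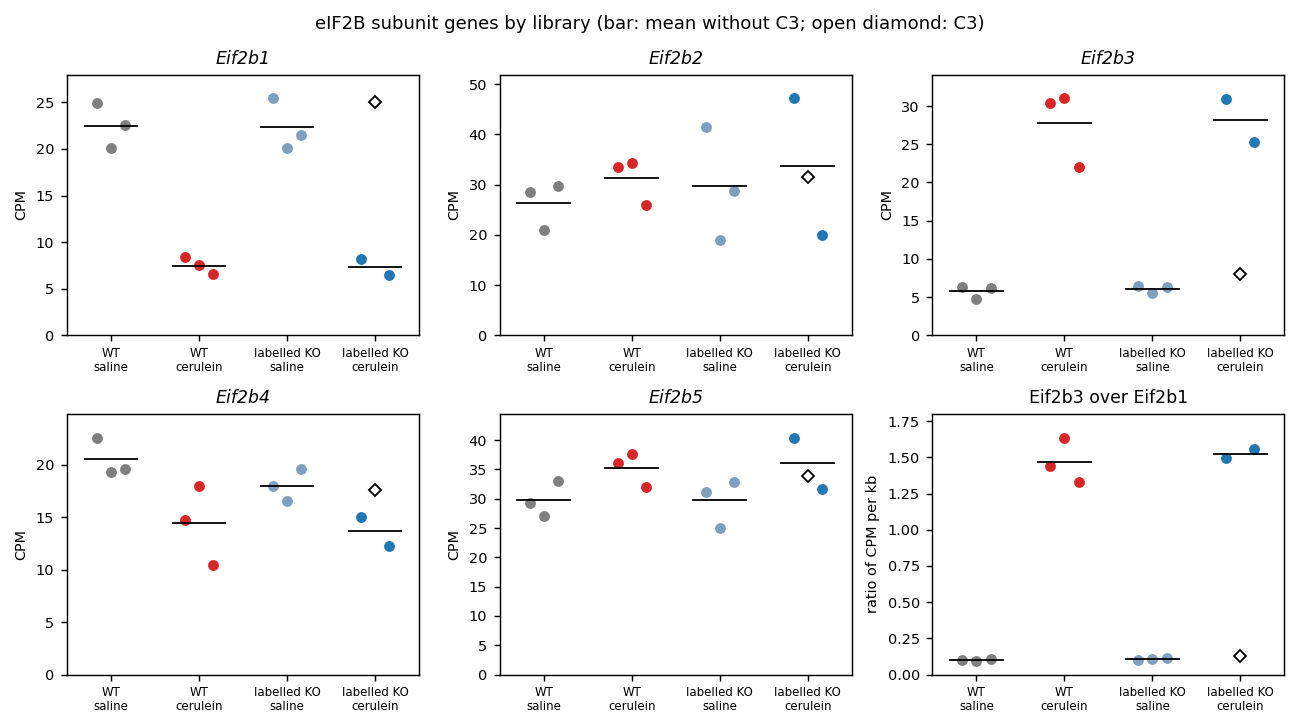
CPM of the 5 eIF2B genes in each library, and the ratio of Eif2b3 to Eif2b1 in CPM per kb (y axes), by group on the x axis; points are libraries, the open diamond is C3 and bars are group means without C3. Eif2b3 and Eif2b1 change places between saline and cerulein in both genotypes, and C3 lies with the saline libraries.

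The alternative factors that can deliver tRNA without eIF2 were Eif2a and Eif2d. Eif2d rose by 0.88 ± 0.21 (log2, edgeR adjusted p = 0.0137). Eif2a, the more abundant of the pair per kb, stood at 24.8, 23.1 and 22.6 CPM in wild type saline and 26.3, 27.1 and 23.6 CPM in cerulein, an overlap, and did not pass (0.12 ± 0.15, edgeR adjusted p = 0.551).

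eIF3 is the large scaffold that binds the small subunit. Of its 14 genes 4 rose, Eif3b, Eif3c, Eif3d and Eif3j1, and 10 did not pass. Summed, those 4 genes went from 266 ± 13.6 to 496 ± 81.9 CPM in wild type (SD, n = 3), while the other 10 summed to 725 ± 30.2 and 843 ± 107 CPM and overlapped; the split was made on these same values and is a description. Eif3c, a core subunit, stood at 80.1, 81.5 and 85.0 CPM in wild type saline and at 177, 178 and 143 CPM in cerulein. These libraries did not overlap, and the rise was 1.01 ± 0.30 (log2, edgeR adjusted p = 0.0268). Eif3b, the scaffold of the mobile module, rose by 0.74 ± 0.20 (log2, edgeR adjusted p = 0.0196) and Eif3d, which can bind caps of selected mRNAs, by 0.74 ± 0.23 (log2, edgeR adjusted p = 0.0342). Over 43.3% of the exon length of Eif3d lies Gm17638, an antisense gene.

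Eif3j1, a loosely held subunit, measured 47.8, 43.6 and 36.4 CPM in wild type saline and 109, 111 and 62.8 CPM in cerulein. All cerulein libraries were above the saline ones, N3 by the least, and the rise was 1.14 ± 0.26 (log2, edgeR adjusted p = 0.0119). Spg11 overlaps it on the opposite strand over 1107 bases. Its copy Eif3j2 read 4.98, 4.47 and 13.4 CPM after saline and 1.55, 7.16 and 23.4 CPM after cerulein. The Eif3j2 values scattered over both groups (0.49 ± 0.98, edgeR adjusted p = 0.74), and over all 12 libraries they ran from 1.41 to 23.4 CPM.

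Eif3h, the most abundant eIF3 gene per kb in wild type, stood at 84.5, 86.0 and 89.0 CPM in saline and at 82.9, 90.2 and 74.8 CPM in cerulein. The groups overlapped and the log2 difference was -0.07 ± 0.16 (edgeR adjusted p = 0.787). Eif3e, Eif3f and Eif3h, with Eif4b, are known 5′ TOP mRNAs, whose translation is under the control of mTORC1. None of the 4 passed, where 30.7% of all genes did, and 1 had an edgeR unadjusted p under 0.05 (43.1% of all genes). With so short a list, a count of 0 cannot be told from that share of 30.7%. The median log2 fold change of the 4 was 0.11, against 0.05 for all genes. Whether mTORC1 has a part in this was not tested.

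In eIF4F, the cap-binding Eif4e and the helicase Eif4a1 rose and the scaffold genes did not pass. Eif4e measured 18.8, 15.0002 and 19.7 CPM in wild type saline and 54.8, 58.1 and 41.8 CPM in cerulein. No library of one group reached the other, and the rise was 1.53 ± 0.30 (log2, edgeR adjusted p = 0.00918). Eif4g1 went from 250, 277 and 274 CPM to 329, 348 and 314 CPM, and Eif4g3 from 23.2, 28.0 and 24.6 CPM to 25.9, 24.9 and 31.2 CPM. The Eif4g1 libraries did not overlap and the Eif4g3 libraries did, but neither passed (0.31 ± 0.16, edgeR adjusted p = 0.173, and 0.11 ± 0.17, edgeR adjusted p = 0.644).

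The helicase paralogs parted. Eif4a1 stood at 191, 136 and 170 CPM in wild type saline and at 401, 464 and 345 CPM in cerulein. The groups did not overlap, and Eif4a1 rose by 1.28 ± 0.27 (log2, edgeR adjusted p = 0.0102). Eif4a2, the most abundant eIF4F gene per kb in wild type saline, read 241, 194 and 196 CPM after saline and 189, 197 and 146 CPM after cerulein. Its libraries overlapped (-0.25 ± 0.25, edgeR adjusted p = 0.491; 0.04 when plain library totals replace TMM). Per kb, Eif4a1 over Eif4a2 was 0.812 to 1.08 over the 6 saline libraries against 2.61 to 3.02 over the 5 cerulein libraries without C3, and C3 had 0.838. The pseudogene Eif4a-ps4 held 13.7% to 19.6% as many counts as Eif4a1, and both genes host small nucleolar RNAs, so part of their counts may belong to these. The cofactor Eif4h rose by 0.57 ± 0.17 (log2, edgeR adjusted p = 0.0295) and Eif4b, the other cofactor, differed by 0.16 ± 0.16 (log2, edgeR adjusted p = 0.504).

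Of the other eIF4 genes, Eif4enif1, the transporter of eIF4E, rose by 1.02 ± 0.23 (log2, edgeR adjusted p = 0.0118). Eif4e2, a cap-binding relative tied to repression, read 22.8, 20.9 and 22.0 CPM in wild type saline and 38.6, 44.9 and 28.8 CPM in cerulein. Its groups were apart, and it rose by 0.77 ± 0.19 (log2, edgeR adjusted p = 0.0137). Eif4a3, the helicase of the exon junction complex, went from 20.96, 14.6 and 17.5 CPM to 27.4, 27.7 and 24.1 CPM, also apart (0.58 ± 0.18, edgeR adjusted p = 0.0363). Eif4e3 stood at 2.07, 1.80 and 3.11 CPM after saline and 4.46, 3.24 and 4.18 CPM after cerulein, with no overlap, and did not pass (0.76 ± 0.42, edgeR adjusted p = 0.186). Eif4g2, a scaffold that does not bind eIF4E and the most abundant of these per kb, read 287, 318 and 316 CPM after saline and 386, 417 and 355 CPM after cerulein. These were apart as well, without passing (0.33 ± 0.16, edgeR adjusted p = 0.143).

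The repressors of eIF4E split. Eif4ebp1, the abundant form, measured 75.5, 57.0 and 71.4 CPM in wild type saline and 146, 150 and 90.2 CPM in cerulein. Its groups did not overlap, with N3 closest to saline, and it rose by 0.92 ± 0.29 (log2, edgeR adjusted p = 0.036). Eif4ebp2 stood at 13.5, 19.2 and 20.4 CPM in saline and at 9.32, 11.2 and 11.1 CPM in cerulein. The cerulein libraries were all lower, and it fell by 0.75 ± 0.22 on the log2 scale (edgeR adjusted p = 0.0261), a call that was lost on plain library totals (-0.47). Eif4ebp3 lay between 0.0484 and 0.354 CPM in the 12 libraries, at 0.0647, 0.103 and 0.354 CPM in wild type saline and 0.147, 0.0484 and 0.283 CPM in cerulein.

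Eif4e rose further than the repressors. Per kb, the 3 Eif4ebp genes together over Eif4e stood at 11.8, 11.8 and 11.2 in wild type saline and at 7.52, 7.26 and 6.24 in cerulein. In the labelled knockout the ratio was 12.6, 10.4 and 14.2 in saline, 10.2 and 8.31 in C2 and L4, and 12.3 in C3. All 5 cerulein libraries other than C3 were below all 6 saline libraries, C2 by the least. Nearly all of that repressor sum is Eif4ebp1, whose own ratio to Eif4ebp2 per kb was 7.81 to 14.8 in the saline libraries and 21.4 to 44.6 in those 5. Eif4ebp1 alone over Eif4e was 9.24 to 12.8 in the 6 saline libraries and 5.91 to 9.94 in those 5. These overlapped, with C2 at 9.94 above the saline library K4 at 9.24, so the clean separation holds for the sum and not for Eif4ebp1 alone. The ratios are RNA ratios and were not tested, and phosphorylation of the proteins was not measured.

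**Figure D4:**
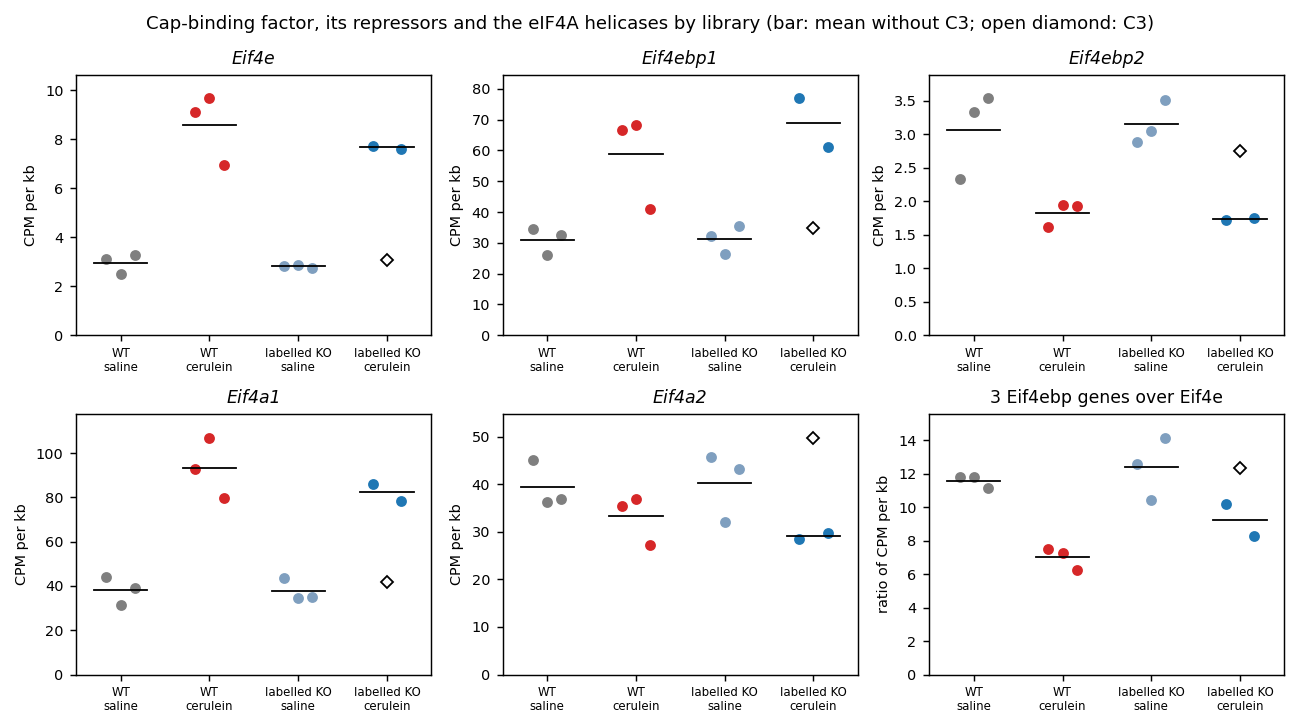
Levels in CPM per kb (y axes) of Eif4e, Eif4ebp1, Eif4ebp2, Eif4a1 and Eif4a2 in each library and the ratio of the 3 Eif4ebp genes to Eif4e, by group on the x axis; points are libraries, the open diamond is C3 and bars are group means without C3. Eif4e, Eif4ebp1 and Eif4a1 are higher in the cerulein libraries other than C3, Eif4ebp2 and the ratio are lower, and Eif4a2 overlaps in wild type. In the labelled knockout, Eif4a2 is lower in C2 and L4 than in the saline libraries.

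In the subunit joining group, Eif5, which triggers GTP hydrolysis by eIF2, stood at 128, 143 and 131 CPM in wild type saline and at 444, 461 and 312 CPM in cerulein. The groups were far apart, and Eif5 rose by 1.60 ± 0.33 (log2, edgeR adjusted p = 0.00946). Eif5b, the GTPase that joins the large subunit, differed by 0.35 ± 0.17 (log2, edgeR adjusted p = 0.135), and its exons overlap Rev1 on the opposite strand over 1643 bases. Eif6, which keeps the large subunit from joining early, measured 16.1, 14.7 and 17.8 CPM after saline and 35.4, 43.0 and 30.5 CPM after cerulein. Without overlap, Eif6 rose by 1.16 ± 0.26 (log2, edgeR adjusted p = 0.0114).

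The eIF5A genes encode a factor that carries hypusine and mainly serves elongation. Eif5a read 214, 152 and 194 CPM in wild type saline and 265, 302 and 214 CPM in cerulein. N3 stood level with W1, and the gene did not pass (0.48 ± 0.21, edgeR adjusted p = 0.105). Eif5a2 was scarce, at 0.453, 0.514 and 0.354 CPM after saline and 0.958, 1.60 and 0.991 CPM after cerulein. Its groups did not overlap, and it rose by 1.42 ± 0.45 (log2, edgeR adjusted p = 0.0368) and lost its call in 10 of 19 other settings.

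Promoter letters were looked up because paralogs such as Eif4a1 and Eif4a2 moved apart. RefSeq windows (build GRCm38.p6) were at hand for 39 of the 51 genes. Those not matched were Eif1a, Eif2b3, Eif3e, Eif3h, Eif3i, Eif3j2, Eif4e1b, Eif4e3, Eif4ebp1, Eif4ebp3, Eif4g2 and Eif6. In the 250 bases before the start, on both strands, the E-box CACGTG was present in 9 of the 39 genes (23.1%), against 6.86% of the 27025 genes in the table. It was found in 4 of the 16 genes with a window that rose (Eif4a1, Eif4e, Eif4h and Eif5a2), in 5 of the 21 that did not pass (Eif1b, Eif3f, Eif3k, Eif4g1 and Eif5a) and in 0 of the 2 that fell. The AP-1 motif TGANTCA was in 3 genes (7.69%, against 7.82% in the table), Eif1, Eif3f and Eif3l, and in Eif3f it overlaps the E-box. TGATGNAAN, the motif of ATF4 with CEBP, was in 1 gene, Eif2s3x (2.56%, against 3.89%), and the CRE TGACGTCA was in 0 genes, against 1.77%. A match is a description of letters in these windows.

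The stretches of 3 genes that rose and hold an E-box, and of Eif4a2 for comparison, are shown 5′ to 3′ on the strand of the gene, outside annotated UTRs, with the E-box in capitals. They lie at chr11:69672424-69672673 (Eif4a1, minus strand), chr3:28781027-28781275 (Eif5a2, plus strand), chr5:134639491-134639659 (Eif4h, minus strand) and chr16:23107218-23107443 (Eif4a2, plus strand). The E-box starts 189 bases before the start of Eif4a1, 142 and 117 before that of Eif5a2 and 96 before that of Eif4h. The stretches shown do not stand for the whole set. Among the paralogs, Eif1b and Eif5a hold an E-box and did not pass, and Eif1 rose without an E-box in its window.
Eif4a1: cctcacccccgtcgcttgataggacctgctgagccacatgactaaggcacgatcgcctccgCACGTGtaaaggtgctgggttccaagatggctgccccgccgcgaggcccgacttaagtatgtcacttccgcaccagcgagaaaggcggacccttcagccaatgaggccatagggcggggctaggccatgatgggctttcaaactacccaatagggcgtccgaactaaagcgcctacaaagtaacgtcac
Eif5a2: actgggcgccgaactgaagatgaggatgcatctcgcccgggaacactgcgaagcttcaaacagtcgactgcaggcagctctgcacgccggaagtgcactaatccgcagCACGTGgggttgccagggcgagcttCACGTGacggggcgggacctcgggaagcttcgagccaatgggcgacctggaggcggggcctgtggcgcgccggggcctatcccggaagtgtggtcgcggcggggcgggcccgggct
Eif4h: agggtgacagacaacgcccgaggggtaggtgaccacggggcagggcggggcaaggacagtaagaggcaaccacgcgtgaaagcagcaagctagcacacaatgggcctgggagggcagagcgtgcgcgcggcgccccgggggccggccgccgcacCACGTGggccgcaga
Eif4a2: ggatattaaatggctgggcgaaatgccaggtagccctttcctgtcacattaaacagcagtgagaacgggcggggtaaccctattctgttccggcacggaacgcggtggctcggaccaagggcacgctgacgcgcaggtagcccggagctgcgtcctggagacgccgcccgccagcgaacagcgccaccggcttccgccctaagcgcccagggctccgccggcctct

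In the labelled knockout the count depended on C3. With C3, edgeR called 0 of the 49 genes for cerulein against saline (0% of all genes), while 19 had an unadjusted p under 0.05 (22.7% of all genes), DESeq2 called 11 and limma-voom called 0. The shares of all genes called by DESeq2 and limma-voom are not given. Without C3, which leaves C2 and L4, 19 rose and 2 fell, where 18.7% of all genes rose and 10.5% fell (29.2% in either direction), and 23 had an unadjusted p under 0.05 (40.6% of all genes). All 21 were among the 23 called in wild type without C3, that is 91.3% of that list; Eif2d and Eif5a2 were called in wild type and not in the labelled knockout. For 29 of the 49 genes C2 and L4 both lay above the 3 saline libraries and for 5 below them (29.3% and 23.7% of all genes).

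C3 lay with the saline libraries for most of these genes. For 16 of the 22 genes called in wild type, its level was within the range of the 6 saline libraries. It lay above that range for Eif1a, Eif2b3, Eif2s2, Eif3j1, Eif4e2 and Eif5, and each time below C2 and L4. Its Eif2b3 level was 7.97 CPM, against 30.9 and 25.3 CPM in C2 and L4, and its Eif2b1 level was 25.0 CPM, against 8.20 and 6.43 CPM. The share of all genes with C3 inside the saline range is not given. The 16 of 22 are therefore not read as a trait of these genes. What sets C3 apart was not tested.

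Summed by group, C2 and L4 lay above the 3 saline libraries for subunit joining (mean ratio 2.32), scanning (2.19), eIF2 (1.90), eIF4F (1.31) and eIF3 (1.30), and overlapped with them for eIF2B (1.12) and eIF5A (1.27). Of the subunit joining sum, Eif5 went from 134 to 420 CPM on average and Eif5b from 97.8 to 117 CPM.

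Without C3, Eif2b3 and Eif2b1 also moved apart in the labelled knockout. Eif2b3 stood at 6.49, 5.48 and 6.32 CPM in its saline libraries (S1, K4, Q1) and rose by 2.21 ± 0.19 (log2, edgeR adjusted p = 2.94e-05). Eif2b1 stood at 25.5, 20.1 and 21.5 CPM in saline and fell by 1.61 ± 0.18 on the log2 scale (edgeR adjusted p = 0.000133). With C3 their changes were 1.81 ± 0.39 and -0.76 ± 0.41 and did not pass (edgeR adjusted p = 0.086 and 0.275).

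Without C3, the cap-binding Eif4e and its repressor Eif4ebp1 rose in the labelled knockout and the repressor Eif4ebp2 fell. Eif4e read 17.0, 17.2 and 16.6 CPM in labelled knockout saline, 46.5 and 45.6 CPM in C2 and L4 and 18.4 CPM in C3. The change without C3 was 1.45 ± 0.17 (log2, edgeR adjusted p = 0.00015) and with C3 1.12 ± 0.30 (edgeR adjusted p = 0.0866). Eif4ebp1 read 71.1, 58.1 and 77.7 CPM in saline, 169 and 134 CPM in C2 and L4 and 76.7 CPM in C3. It rose by 1.14 ± 0.24 without C3 (log2, edgeR adjusted p = 0.00524). Eif4ebp2 read 16.7, 17.6 and 20.3 CPM in saline, 9.97 and 10.1 CPM in C2 and L4 and 15.9 CPM in C3, and fell by 0.86 ± 0.19 on the log2 scale without C3 (edgeR adjusted p = 0.00666). For each of these genes C2 and L4 were clear of the 3 labelled knockout saline libraries. C3 lay among those libraries for Eif4ebp1 and just outside them for Eif4e and Eif4ebp2, and within the range of all 6 saline libraries for all 3 genes.

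Eif4a1 stood at 189, 150 and 152 CPM in labelled knockout saline, 372 and 341 CPM in C2 and L4 and 181 CPM in C3, and rose by 1.12 ± 0.20 without C3 (log2, edgeR adjusted p = 0.00182). Eif5 stood at 136, 122 and 145 CPM in saline, 429 and 412 CPM in C2 and L4 and 156 CPM in C3, and rose by 1.65 ± 0.19 (log2, edgeR adjusted p = 0.000134). Eif1a read 62.0, 32.8 and 45.9 CPM after saline, 163 and 123 CPM in C2 and L4 and 64.6 CPM in C3, and rose by 1.61 ± 0.29 (log2, edgeR adjusted p = 0.0023). Eif3c read 85.6, 78.1 and 93.0 CPM after saline, 224 and 193 CPM in C2 and L4 and 82.8 CPM in C3, and rose by 1.29 ± 0.16 (log2, edgeR adjusted p = 0.000201). Eif6 read 16.2, 16.3 and 13.7 CPM after saline, 38.1 and 30.2 CPM in C2 and L4 and 16.4 CPM in C3, and rose by 1.15 ± 0.18 (log2, edgeR adjusted p = 0.000809). For all of these genes C2 and L4 lay above the saline libraries. Eif4a2 read 244, 171 and 231 CPM in labelled knockout saline, 152 and 159 CPM in C2 and L4 and 266 CPM in C3. For this gene C2 and L4 lay below the saline libraries, and the log2 difference of -0.47 without C3 did not pass.

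Eif1ad, which encodes the eIF1A domain protein, reached 35.3 and 25.2 CPM in C2 and L4, against 10.6 to 12.1 CPM in saline, and rose by 1.43 ± 0.19 without C3 (log2, edgeR adjusted p = 0.000369).

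**Figure D5:**
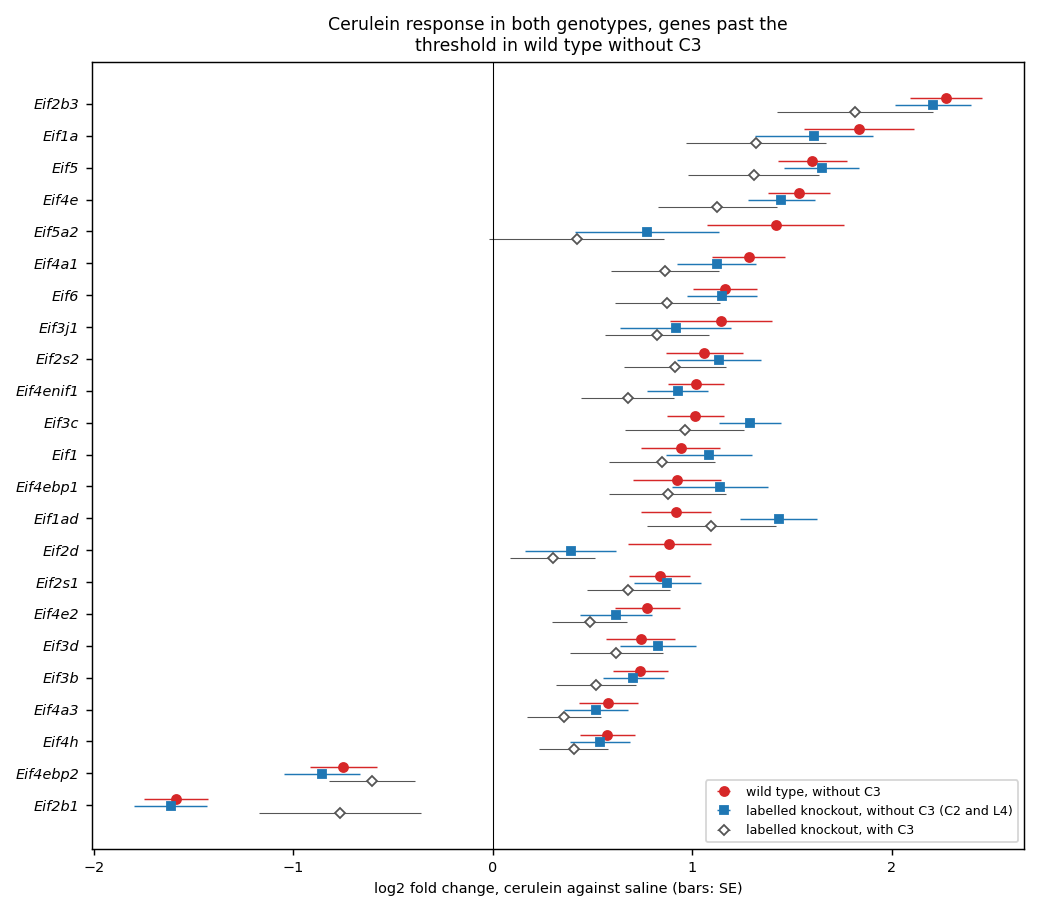
Log2 fold change of cerulein against saline (x axis, bars are SE) for the 23 genes past the threshold in wild type without C3 (y axis), in wild type, in the labelled knockout without C3 and in the labelled knockout with C3. The squares without C3 lie near the wild type points for most genes, with Eif5a2 and Eif2d lower at 0.77 and 0.39, and the diamonds with C3 lie nearer to 0.

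No gene of the set passed in the comparisons between genotypes. In saline, edgeR called 0 of 49 with all 12 libraries and 0 without C3, with 0 at an unadjusted p under 0.05 in both (0% of all genes passed, and 0.419% with 12 libraries and 0.896% without C3 were at an unadjusted p under 0.05). In cerulein it called 0 both ways, with 0 at an unadjusted p under 0.05 with C3 and 1 without it, Eif1ad (0.53 ± 0.19 higher in the labelled knockout on the log2 scale, edgeR unadjusted p = 0.0195 and adjusted p = 0.974). In cerulein 0% of all genes passed, and 8% with C3 and 5.07% without it were at an unadjusted p under 0.05. The 2 cerulein responses differed for 0 genes, adjusted or unadjusted (0% of all genes passed, and 4.15% with C3 and 3.45% without it were at an unadjusted p under 0.05). DESeq2 and limma-voom also called 0 genes of the set in these 3 comparisons, with and without C3. Without C3 the difference, labelled knockout minus wild type, was -0.06 ± 0.26 for Eif2b3, -0.09 ± 0.23 for Eif4e, -0.49 ± 0.31 for Eif2d and -0.64 ± 0.50 for Eif5a2 (log2). A p that misses the threshold does not show that the genotypes respond alike.

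Regulators of these factors were taken from lists of pathway genes and are read against the 17.9% of all genes that rose and the 12.8% that fell in wild type. Of 8 genes for eIF2 kinases, their helpers and phosphatase subunits, 3 rose (37.5%) and 1 fell (12.5%, close to the share of all genes). Ppp1r15a, the stress-induced subunit that dephosphorylates eIF2, rose by 2.22 ± 0.51, its constitutive relative Ppp1r15b by 0.94 ± 0.25 and Gcn1, an activator of the kinase GCN2, by 0.77 ± 0.23. Eif2ak1, the heme-regulated kinase, fell by 1.70 ± 0.40 (log2; edgeR adjusted p = 0.0119, 0.0189, 0.0275 and 0.0127 in that order).

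Of 17 genes of the mTORC1 arm, 3 rose (17.6%, close to the share of all genes) and 5 fell (29.4%). Sesn2 and Ddit4, stress-induced inhibitors of mTORC1, rose by 5.05 ± 1.11 and 2.21 ± 0.74, and its activator Rheb by 1.78 ± 0.33. Pdcd4, which inhibits eIF4A, fell by 2.23 ± 0.57, Mknk1, a kinase of eIF4E, by 1.74 ± 0.42 and Deptor, an mTORC1 inhibitor, by 1.14 ± 0.25 (log2; edgeR adjusted p between 0.00918 and 0.044 for these 6).

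Of 12 helpers of initiation and recycling, 3 rose (25%), Bzw1 (0.81), Pabpc1 (0.67) and Abce1 (0.57, all log2). Of 11 genes on the elongation and termination list 2 rose, Eef1e1 (1.51) and Etf1 (1.26, both log2), which is 18.2% and close to the share of all genes. Eef1e1 has the symbol of an elongation factor but is not one itself, so no elongation factor on the list passed. Eef1a1 did not pass, yet its wild type cerulein libraries (3343 to 3948 CPM) all lay above the saline ones (2944 to 3021 CPM). The wild type libraries overlapped for Eef1a2, Eef1b2, Eef1d, Eef1g and Eef2. Median log2 fold changes were 0.38 for the eIF2 list, -0.29 for the mTORC1 arm, -0.09 for the helpers and 0.14 for elongation and termination, against 0.05 for all genes. Without C3 the counts, higher and lower, were 3 and 2, 3 and 6, 4 and 0, and 2 and 0 in wild type, where 21.3% of all genes rose and 16.6% fell. In the labelled knockout they were 3 and 2, 3 and 6, 3 and 0, and 2 and 0, where 18.7% of all genes rose and 10.5% fell.

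Markers of cell types moved beside the initiation factors. In wild type, the 6 acinar markers summed to 279283 to 337088 CPM in saline and 183246 to 242629 CPM in cerulein (2 of 6 passed, both lower), and the 5 duct markers to 30.6 to 34.5 and 156 to 239 CPM (3 of 5 rose). None of the tested islet, fibroblast, adipocyte, erythroid, macrophage, neutrophil or lymphocyte markers passed, and 1 of 4 endothelial markers, Kdr, fell. N3 was the lowest of the wild type cerulein libraries for 43 of the 49 genes tested, 19 of the 20 that rose among them. The share over all genes is not given, so this is not read as a trait of the genes that rose. N3 had summed adipocyte markers of 281 CPM and lymphocyte markers of 220 CPM, against 29.4 to 29.8 and 3.10 to 12.8 CPM in O1 and O3. L4 had 10570 CPM of islet markers, against 424 to 3293 CPM in the other libraries. Ly6g, which defines neutrophils, was at most 0.209 CPM. The part of cell makeup in these results was not tested, and in bulk tissue fewer cells of a type and less RNA per cell cannot be told apart.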

How the data were processed

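Gene counts of 12 pancreas libraries, 1 mouse each, were taken as the authors deposited them. Per the submitters' processing notes, HTSeq, DESeq2 and the build mm10 were used, and per the labels' protocols the libraries were made with Illumina TruSeq Stranded Total RNA. For the aligner, annotation release and strand setting, the entry is: not given in the sources used here. Gene types, exon lengths and overlaps came from GENCODE M21 and promoters from RefSeq GRCm38.p6.

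All 12 libraries entered 1 edgeR fit (version 4.0.16, R 4.3.3; TMM, filterByExpr, robust quasi-likelihood F test) with a mean for each of the 4 groups, and p-values were adjusted by Benjamini-Hochberg over all 14329 genes tested (14733 without C3), with 0.05 as threshold. The procedure was tested on simulated data with changes placed only in the wild type cerulein group. Those data had less spread than these libraries and no outlying library. The test therefore does not cover calls that depend on C3. Levels are CPM on TMM-scaled sizes, or CPM per kb of merged exons. Alternatives were DESeq2 1.42.0, limma-voom (limma 3.58.1), DESeq2 size factors in edgeR, TMM without the 50 most abundant genes, plain library totals, no filter, a mean CPM of at least 1, each pair of groups alone and leaving out each library. C3 was left out throughout as 1 alternative, and DESeq2 and limma-voom without C3, and C3 together with each other library, were added after seeing the data.

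Values in every library were given for all Eif4ebp genes, for the 8 largest rises and 8 largest falls among genes past the threshold in a comparison, for the most abundant gene of each group per kb, and for paralogs. Of each regulator list, up to 6 genes past the threshold were named by size of change. The other genes and values shown were chosen after their values were seen. Members and lists were chosen with earlier results of these data known. P-values set a difference between groups against the spread between animals within groups. In edgeR that spread was estimated over the 4 groups together and moderated across genes, and C3 is part of it unless left out.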

Additional observations from a re-analysis of the deposited data

How the results depend on the processing

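Depth was 18292997 to 32158629 counts per library, and Eif4ebp3, at 1 to 9 counts per library, was too scarce to test. In wild type, 22 genes passed. Plain library totals gave 34 (33 higher and 1 lower) and moved the median of all genes by 0.29 on the log2 scale (0.20 in the labelled knockout). Leaving out 1 library gave 8 to 23 genes, and up to 29 with C3 also out. Shares of all genes are given only for the edgeR fits with all libraries and without C3. Under the other settings a change particular to these genes cannot be told from a general one. In the labelled knockout 0 passed, while DESeq2 gave 11, leaving out C3 gave 21, DESeq2 without C3 gave 22, limma-voom without C3 gave 21, and leaving out C3 with 1 other library gave 17 to 21 (where C2 or L4 was the other library, 1 library stood for that group and was assumed to vary like the other groups). Among the 56 results recomputed, the signs that reversed belonged to wild type differences of 5 genes that had not passed. On plain library totals the log2 difference was 0.23 for Eif1b, 0.17 for Eif2s3x, 0.21 for Eif3h and 0.0366 for Eif4a2, and without the filter it was 0.00113 for Eif1b. Eif3j2 stood at -0.12 with limma-voom and -0.13 with limma-voom without C3. With libraries left out, Eif1b ran from -0.17 to 0.0470 (0.0438 without N3 and C3), Eif3h from -0.13 to 0.00279 (0.000122 without N3 and C3) and Eif3j2 from -0.84 to 1.18 (-0.82 without N3). The causes were not tested. No paired analysis was possible because the 4 groups have no library code in common.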
